A study of Rattus norvegicus with 4 samples.

Results

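The genes of the fibroblast growth factor (FGF), platelet-derived growth factor (PDGF), vascular endothelial growth factor (VEGF) and hepatocyte growth factor (HGF) systems were compared between cultured rat olfactory ensheathing cells sorted by p75, the neurotrophin receptor encoded by Ngfr. Members were taken by gene name: names that begin with Fgf and a digit, with Fgfr, Pdgf or Vegf, together with Figf, Pgf, Kdr, Flt1, Flt4, Hgf and Met. This rule found 44 genes, read by 54 probes at 81 spots, of 35655 genes, 41012 probes and 43379 gene spots on the array. No measured value entered the rule. The names gave 18 FGF ligands, 4 FGF homologous factors, 5 FGF receptors, 3 PDGF ligands, 3 PDGF receptors, 5 VEGF ligands, 3 VEGF receptors, and Hgf with its receptor Met. The remaining gene, Fgfr1op2, was taken by its name alone and encodes no receptor. Olfactory ensheathing cells are the glia that wrap the axons of the olfactory nerve. The p75High and the p75Low cells came from cultures of male Fischer rats, were separated by flow cytometry at a stated purity of 98%, and shared all culture steps. Their mRNA was amplified by a global PCR, and on each of 4 arrays, 1 per biological replicate, p75High cDNA carried the red dye and p75Low cDNA the green dye. The labels give neither the age of the rats, nor the part of the olfactory system cultured, nor whether each replicate was its own animal or culture; p-values here therefore cover the spread between 4 arrays, which may be in part technical.

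FGFs are secreted proteins that bind heparan sulfate and signal through 4 receptor tyrosine kinases, Fgfr1 to Fgfr4. The FGF homologous factors (Fgf11 to Fgf14) resemble them in fold but stay inside the cell, where they bind sodium channels. PDGF dimers act through the kinases Pdgfra and Pdgfrb on fibroblasts, pericytes and oligodendrocyte precursors. VEGF-A acts through Flt1 and Kdr on blood vessels, VEGF-C and VEGF-D (Figf) act through Flt4 on lymphatic vessels, and Vegfb and Pgf bind Flt1. HGF, made mostly by mesenchymal cells, acts through Met. FGF2 is known as a mitogen of olfactory ensheathing cells in culture.

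The probes below carry the results, because the paired probes of Vegfa and of Vegfb differed and because Pdgfa and Fgf5 were among the largest mean ratios. Each is 60 bases long, is read from the array files 5′ to 3′ and was taken as coding from knowledge of its bases, not from an annotation; coordinates are those of the files in build rn4. The first Vegfa probe, at chr9:10521744-10521803 on the forward strand, begins with the start codon, shown in capitals. The second, on the 3′ side at chr9:10528580-10528965, spans more genome than its own length and so crosses an intron. The Vegfb probes lie on the reverse strand of chromosome 1, the 5′ one at chr1:209660039-209660384 and the 3′ one at chr1:209659244-209659672, and also cross introns. Capitals in the 3′ probes of Vegfa and Vegfb mark the longest stretch that they share, 18 bases. The Pdgfa probe, at chr12:16160668-16162882 on the forward strand, crosses an intron and begins with the codons of the site where the propeptide is cut, in capitals. The Fgf5 probe lies at chr14:12714240-12714299 on the reverse strand.
Vegfa, 5′ probe: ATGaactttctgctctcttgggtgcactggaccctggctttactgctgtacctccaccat
Vegfa, 3′ probe: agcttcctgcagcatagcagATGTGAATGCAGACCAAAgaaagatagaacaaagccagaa
Vegfb, 5′ probe: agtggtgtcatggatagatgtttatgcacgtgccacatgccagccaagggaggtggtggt
Vegfb, 3′ probe: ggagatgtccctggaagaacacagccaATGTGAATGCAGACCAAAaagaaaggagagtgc
Pdgfa: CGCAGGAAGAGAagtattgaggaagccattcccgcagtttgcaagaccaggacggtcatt
Fgf5: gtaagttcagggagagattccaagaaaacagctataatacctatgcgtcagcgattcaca

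Across the array, 22463 to 28062 probes were well above background in p75High cells and 23042 to 26172 in p75Low cells. Ngfr, the gene of the sort, had log2 ratios of p75High over p75Low of 6.07, 6.17, 5.02 and 5.96 on replicates 1 to 4 (5.80 ± 0.53, SD, n = 4, adjusted p = 0.0262). The log2 ratios of different arrays correlated weakly across genes, at 0.176 to 0.25. All ratios below are log2 of p75High over p75Low, and levels are log2 normalised intensities. Levels were set against each other only within a probe, except for the floor used for Fgf14. The dyes were not exchanged on any array, so a dye effect and the sort cannot be told apart, nor can fewer cells of a type and less RNA per cell.

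Most members were detected. A probe was kept when 1 population gave a signal well above background on 3 or more arrays. This held for 37 of the 54 member probes (68.5%), against 60.8% of all probes. Among the genes, 31 of 44 had a kept probe. The probes of 6 genes were not well above background on any array in either population: Fgf1 and Fgf9, both secreted FGFs found in neurons, Fgf7, a mesenchymal factor for epithelia, Fgf20, Pdgfc and Hgf. Levels of Hgf, printed at 10 spots on each array, were 6.02, 6.10, 6.05 and 6.12 in p75High cells and 6.10, 6.04, 6.08 and 6.07 in p75Low cells. On some arrays 7 further genes were above background, but too few to be kept: Fgf11, Fgf13, Fgf16, Fgf21, Met, Pdgfra and Pdgfrb. At the level of probes, 8 of 54 (14.8%) were above background on no array, against 14.6% of all probes. Signal below this line says that the probe did not register the transcript after amplification, not that the gene was silent.

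**Figure D1:**
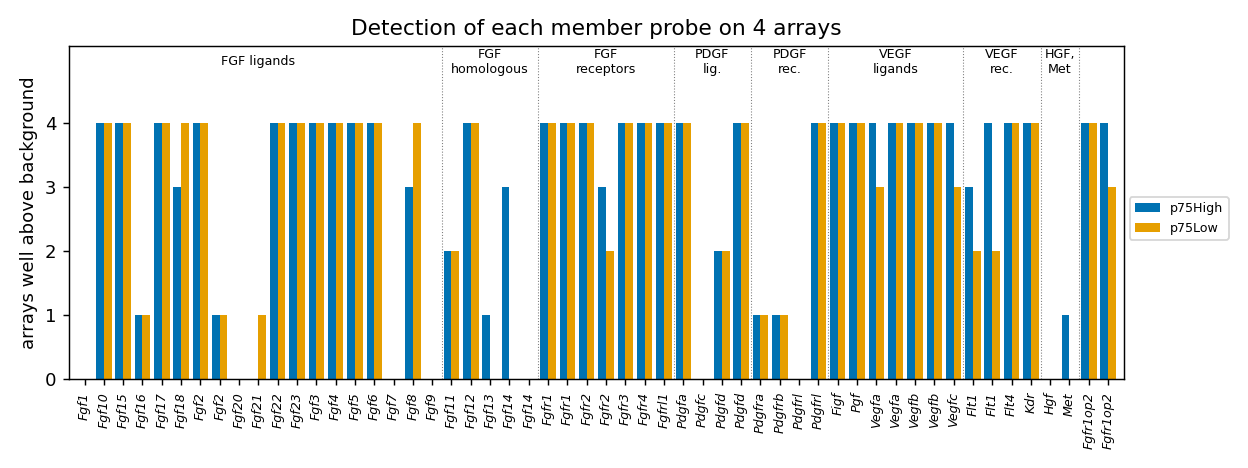
Number of arrays (0 to 4) on which each of the 54 member probes was well above background, in p75High cells (left bar) and in p75Low cells (right bar), by family. The probes of Figf, Pgf, Fgfr1, Fgfr3, Fgfr4 and Fgfrl1 were above background on 4 arrays in both populations, and those of Hgf, Pdgfc, Fgf1, Fgf7, Fgf9 and Fgf20 on 0.

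Of the 44 members, 30 could be tested. None of the 30 passed an adjusted p of 0.05 in limma fitted over all 22193 genes, of which 0.748% passed (69 higher, 0.311%, and 97 lower, 0.437%). At an unadjusted p under 0.05, Vegfa, Fgf3, Fgf5 and Fgfrl1 lay higher in p75High cells and 0 members lower. These were 4 of 30 members (13.3%), against 12.7% of all genes in both directions and 5.82% in the higher direction; 6.91% of all genes were lower at that cut. The same 4 genes were those whose levels did not overlap, with every p75High array above every p75Low array, against 3.98% of all genes; 0 members had the reverse, against 3.76%. Log2 ratios had the same sign on all 4 arrays for 10 of 30 members (33.3%, 7 positive and 3 negative), against 25.5% of all genes (12.5% positive and 13% negative). The median over the 30 members was 0.09 with a range of -1.62 to 3.15, beside a median of -0.03 over all genes. By array the members' median was 0.13, 0.22, 0.06 and 0.03, and without replicate 2 it was -0.03. With any 1 array left out, 0 genes passed the adjusted threshold in limma (1885 to 2374 at an unadjusted p under 0.05), which includes Ngfr and every list gene called below.

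**Figure D2:**
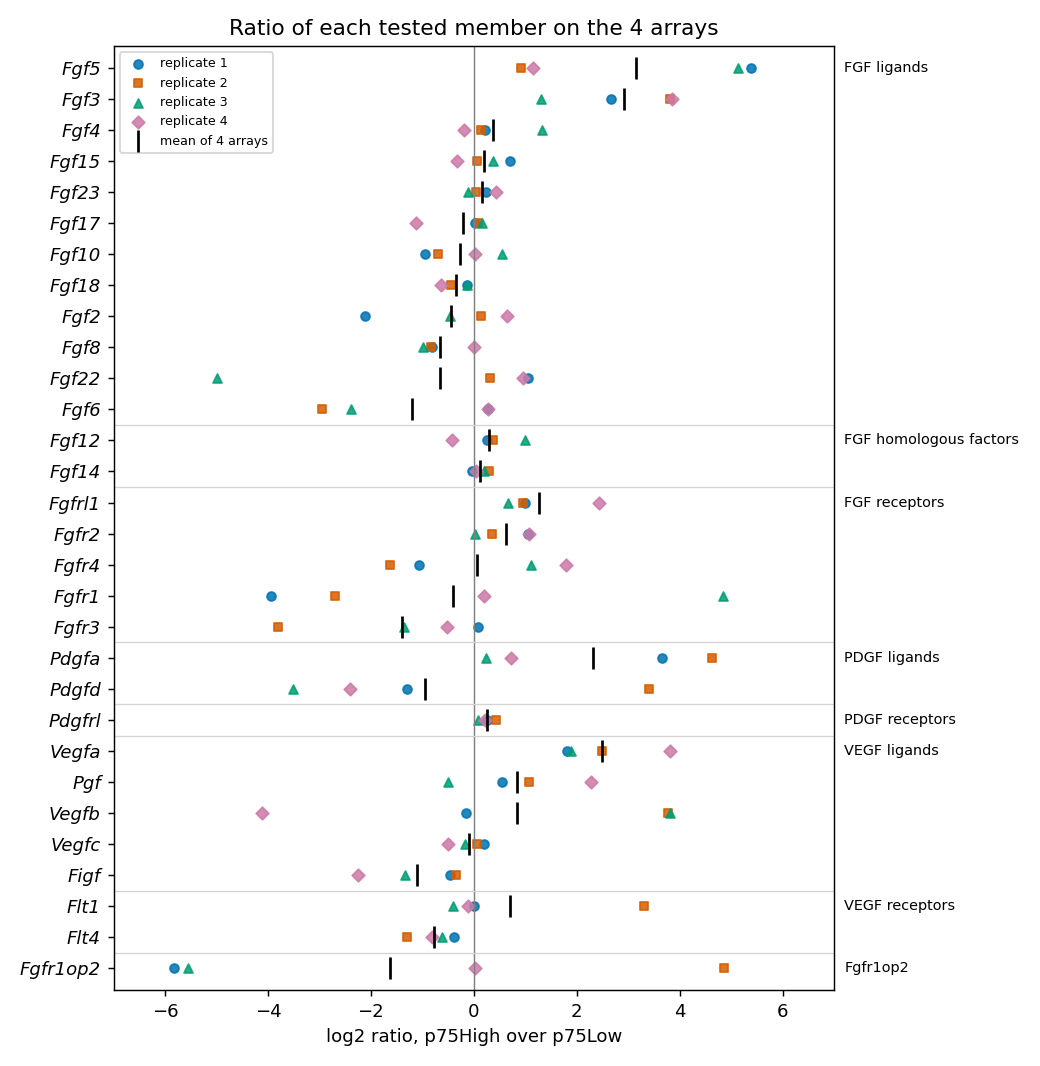
Log2 ratio of p75High over p75Low for the 30 tested members on each of the 4 arrays (symbols) with the mean (bar), by family. Vegfa, Fgf3, Fgf5 and Fgfrl1 lie to the right of 0 on all 4 arrays, and Fgfr1op2, Fgfr1, Vegfb and Pdgfd spread to both sides.

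Vegfa, the main growth factor of blood vessels, was the member with the smallest p. The level of its 5′ probe was 10.66, 11.78, 10.71 and 12.53 in p75High cells, against 8.84, 9.29, 8.83 and 8.71 in p75Low cells. All 4 p75High values lay above all 4 p75Low values. The log2 ratio was 1.82, 2.49, 1.88 and 3.81 by array, with a mean of 2.50 ± 0.93 (SD, n = 4; 95% interval 1.31 to 3.69; adjusted p = 0.162), a 5.66-fold difference that did not pass the adjusted threshold. The 3′ probe, 6776 bases away, did not share this pattern. Its level was 8.70, 6.53, 6.15 and 6.96 in p75High cells and 6.43, 6.40, 9.0 and 7.09 in p75Low cells, so p75High cells were the brighter on replicate 1 and p75Low cells on replicate 3. Its log2 ratio averaged -0.15 ± 2.10 (SD, n = 4), and the median over both probes gave a Vegfa ratio of 1.18 (adjusted p = 0.441).

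The other VEGF ligands did not share a direction. Pgf, placental growth factor, had a level of 11.70, 11.33, 10.98 and 13.39 in p75High cells, against 11.15, 10.25, 11.48 and 11.12 in p75Low cells. The log2 ratio of Pgf was 0.55, 1.08, -0.50 and 2.27, with a mean of 0.85 ± 1.15 (SD, n = 4, adjusted p = 0.544), negative on replicate 3. Figf (current name Vegfd), the ligand of Flt4 that also acts on lymphatic vessels, had the negative sign on every array. The level of Figf was 6.80, 6.73, 6.26 and 7.41 in p75High cells and 7.27, 7.07, 7.61 and 9.65 in p75Low cells. Its log2 ratio was -0.47, -0.34, -1.34 and -2.25 (-1.10 ± 0.89, SD, n = 4; 95% interval -2.26 to 0.06; adjusted p = 0.407), and its levels overlapped. Vegfc, the other ligand of Flt4, stayed between -0.50 and 0.19 on the 4 arrays (adjusted p = 0.892).

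Vegfb gave opposite signs on different arrays and different means at its probes. The 5′ probe had log2 ratios of -0.14, 3.78, 3.82 and -4.11, with a mean of 0.84 ± 3.79 (SD, n = 4, adjusted p = 0.83). The 3′ probe, 366 bases away, had -3.25, 0.29, -0.11 and -4.73, with a mean of -1.95 ± 2.44 (SD, n = 4). Both probes were lowest on replicate 4, where the 3′ probe read 9.36 in p75High cells and 14.09 in p75Low cells. They lay more than 3 log2 units apart on replicates 1 to 3, with the 3′ probe the lower, and were closest on replicate 4. The 3′ probes of Vegfa and Vegfb, which share 18 bases, ordered the arrays differently: the Vegfa probe was highest on replicate 1 and lowest on replicate 3, the Vegfb probe highest on replicate 2 and lowest on replicate 4. For the VEGF ligands as a group the median was 0.84, with 0 of 5 past the adjusted threshold, and by array 0.19, 1.08, -0.17 and -0.50. That median was -0.15 without replicate 2, -0.08 without replicate 3 and -0.10 with the median over the probes of each gene.

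Of the VEGF receptors, Kdr, the main signalling receptor for VEGF-A, was read at 1 spot, which the scanner software had marked as uneven in the red channel on 3 arrays, and only replicate 3 was left (log2 ratio 1.88). With the marked readings kept, the level of Kdr was 8.57, 10.65, 8.51 and 11.29 in p75High cells, against 6.55, 6.89, 6.64 and 7.08 in p75Low cells. All 4 p75High readings then lay above the p75Low ones, with a mean log2 ratio of 2.97 ± 1.19 (SD, n = 4, adjusted p = 0.152). Flt4 had log2 ratios of -0.38, -1.31, -0.62 and -0.82, negative on every array. Its levels were 7.58, 7.33, 7.38 and 8.85 in p75High cells and 7.96, 8.63, 8.0 and 9.67 in p75Low cells, which overlap. The mean was -0.78 ± 0.39 (SD, n = 4; 95% interval -1.58 to 0.02; adjusted p = 0.399). Flt1, the receptor bound by VEGF-A, Vegfb and Pgf, had 0.01, 3.31, -0.41 and -0.11 (adjusted p = 0.705). Replicate 2 alone was high in Flt1, at 9.72 in p75High cells and 6.40 in p75Low cells. That probe was well above background on 3 arrays in p75High cells and on 2 in p75Low cells. The other Flt1 probe, 93830 bases away, was so on 4 and 2 arrays. It had log2 ratios of 0.58, 0.33, 0.40 and -0.27, with a mean of 0.26.

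Fgf3 and Fgf5 had the largest mean log2 ratios of the 12 tested FGF ligands. Fgf3, a factor of inner ear and tail development, was read by a probe at chr1:205273314-205273373. Its level was 9.61, 11.10, 10.11 and 11.70 in p75High cells, against 6.93, 7.29, 8.80 and 7.84 in p75Low cells, without overlap. The log2 ratio of Fgf3 was 2.67, 3.81, 1.30 and 3.85 (2.91 ± 1.20, SD, n = 4; 95% interval 1.47 to 4.35; adjusted p = 0.173). Fgf5, a regulator of the hair cycle, had levels of 11.64, 7.46, 12.26 and 8.17 in p75High cells and 6.25, 6.53, 7.13 and 7.02 in p75Low cells. Replicates 1 and 3 were high and replicates 2 and 4 close to the p75Low levels, and no p75High value lay below a p75Low one. Its log2 ratios were 5.39, 0.93, 5.13 and 1.15 (3.15 ± 2.44, SD, n = 4, adjusted p = 0.344).

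The 10 other tested FGF ligands had mean log2 ratios from -1.19 to 0.37. Fgf6, a factor of muscle repair, had levels of 9.94, 9.53, 9.0 and 10.41 in p75High cells, against 9.66, 12.47, 11.38 and 10.14 in p75Low cells, where replicates 2 and 3 stood above the rest. Its log2 ratio was 0.28, -2.94, -2.38 and 0.27 (-1.19 ± 1.71, SD, n = 4, adjusted p = 0.540). Fgf18, a factor of bone and lung development, had a small negative ratio on every array, at -0.14, -0.43, -0.14 and -0.64 (adjusted p = 0.628). Fgf8, a patterning signal of the early nervous system, had -0.80, -0.84 and -1.0 on replicates 1 to 3 and 0.00 on replicate 4 (adjusted p = 0.467). Fgf2 had -2.11, 0.14, -0.46 and 0.64, a mixed sign, and its mean turned to 0.11 without replicate 1. Fgf22, a presynaptic organiser, had 1.06, 0.32, -4.98 and 0.95, with p75Low replicate 3 at a level of 14.04 against 7.14 to 8.01 on the other arrays. The median over the FGF ligands was -0.24, with 0 of 12 past the adjusted threshold; it was -0.0028 without replicate 1, -0.091 without replicate 4 and -0.046 under median centring.

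Of the FGF receptors, Fgfrl1, which binds FGFs but lacks a kinase domain, had the same sign on all 4 arrays. Read at chr14:1550949-1551008, its level was 10.57, 10.80, 10.37 and 11.54 in p75High cells, against 9.58, 9.84, 9.71 and 9.12 in p75Low cells, without overlap. The log2 ratio of Fgfrl1 was 0.99, 0.96, 0.66 and 2.43 (1.26 ± 0.79, SD, n = 4; 95% interval 0.18 to 2.34; adjusted p = 0.348). Fgfr2 was positive on all 4 arrays at the probe that stood for it, at 1.04, 0.35, 0.03 and 1.07 (0.62 ± 0.52, SD, n = 4, adjusted p = 0.50). The value depended on the choice of probe: the median over the kept probes of Fgfr2 was 1.90 (adjusted p = 0.314).

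Fgfr1, Fgfr3 and Fgfr4 did not show a shared direction. Fgfr1 had log2 ratios of -3.95, -2.69, 4.84 and 0.19 (-0.40 ± 3.90, SD, n = 4, adjusted p = 0.925). Its p75High level reached 14.07 on replicate 3 and 8.49 to 9.38 on the others, while its p75Low level was 12.43 and 11.48 on replicates 1 and 2 and 9.18 to 9.23 on the others. The other Fgfr1 probe, 9954 bases away, ranged from -1.19 to 0.57. Fgfr3 had 0.08, -3.81, -1.36 and -0.52 (-1.40 ± 1.71, SD, n = 4, adjusted p = 0.495), with its p75Low level at 10.51 on replicate 2. Fgfr4 had -1.05, -1.63, 1.12 and 1.80, 2 arrays to each side of 0. The median over the 5 receptors was 0.06, with array medians of 0.08, -1.63, 0.66 and 1.07, and it ranged from -0.52 without replicate 4 to 0.62 without replicate 2. The 2 tested homologous factors, Fgf12 and Fgf14, had means of 0.30 and 0.12. The p75Low level of Fgf14 was not well above background on any array. Where that level lay below the lowest one called above background on its array, over all probes, it was raised to it. The log2 ratio was then 0.10, which is a lower bound.

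Among the PDGF genes, Pdgfa, a ligand of PDGF receptor alpha, was high in p75High cells on 2 arrays. Its level was 10.51, 11.32, 7.10 and 7.87 in p75High cells, against 6.85, 6.69, 6.86 and 7.14 in p75Low cells, which overlap only in that replicate 3 of p75High lay below replicate 4 of p75Low. The log2 ratio of Pdgfa was 3.66, 4.63, 0.24 and 0.73 (2.32 ± 2.16, SD, n = 4, adjusted p = 0.399). Pdgfd, a ligand of PDGF receptor beta, had -1.30, 3.40, -3.51 and -2.41 (-0.95 ± 3.04, SD, n = 4, adjusted p = 0.757), opposite on replicate 2. Pdgfrl, a secreted receptor-like protein without a kinase domain, had small positive ratios on all 4 arrays, at 0.26, 0.44, 0.09 and 0.22 (adjusted p = 0.701). The PDGF receptors were near background, with 1 array apiece as an exception, where the p75Low channel was the brighter. Pdgfra read 6.86 in p75High cells and 10.92 in p75Low cells on replicate 1, and 6.02 to 6.22 on the other arrays in both. Pdgfrb read 6.89 in p75High cells and 11.08 in p75Low cells on replicate 3, and 5.91 to 6.17 on the other arrays. Met reached above background on 1 array in p75High cells and on 0 in p75Low cells, and the name-matched Fgfr1op2 had -5.82, 4.87, -5.56 and 0.03 (adjusted p = 0.751). The other Fgfr1op2 probe, 1202 bases away, was marked as uneven in the red channel on 3 arrays. Only replicate 3 was left, at 1.16. With the marked readings kept, that probe had -3.48, 2.56, 1.16 and 3.30.

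**Figure D3:**
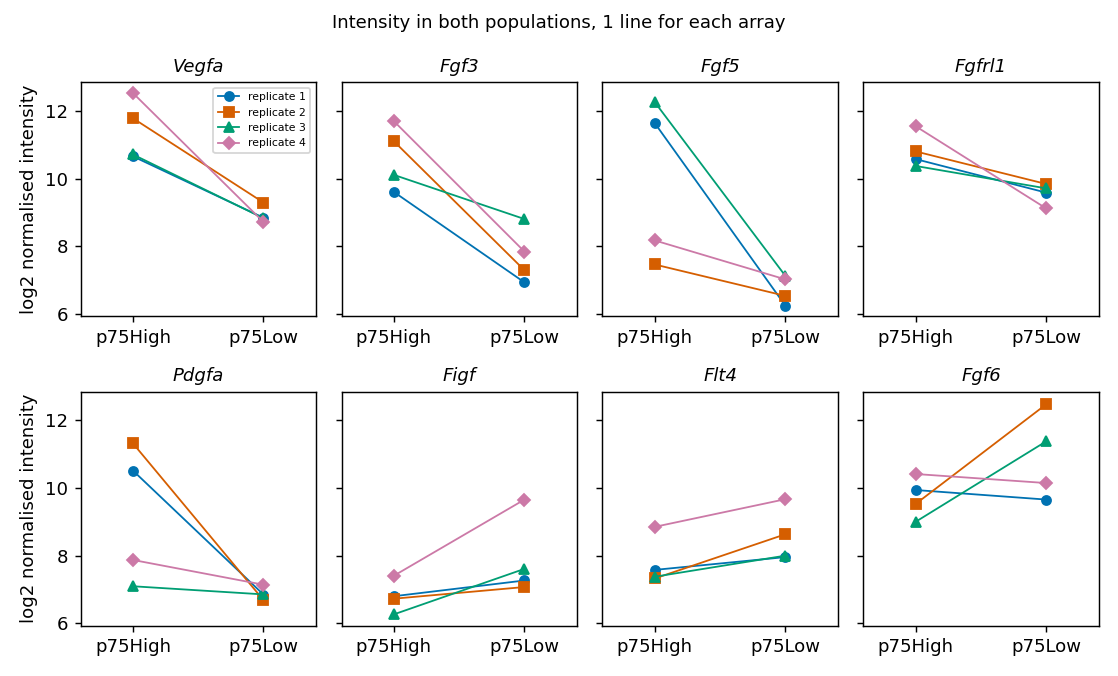
Log2 normalised intensity in p75High cells and in p75Low cells on the 4 arrays for Vegfa, Fgf3, Fgf5, Fgfrl1, Pdgfa, Figf, Flt4 and Fgf6, with a line joining the pair of each array. Vegfa, Fgf3, Fgf5 and Fgfrl1 have all p75High points above all p75Low points, and the others overlap.

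Of the 3 member probes printed at 10 spots, those of Vegfa and Fgf2 differed more between arrays than between the spots of an array. The 3′ Vegfa probe had spot SDs of 0.11 to 0.17 on each array, against the SD of 2.10 between arrays. The left-out Fgf2 probe, with 10 spots, had spot means of 0.01, -0.05, -2.62 and 0.03 and spot SDs of 0.07 to 0.12, and its replicate 3 value came from a p75Low level of 8.50, against 5.88 in p75High cells. The Hgf probe, below background throughout, had array means of -0.08 to 0.07, an SD of 0.07 between arrays and spot SDs of 0.05 to 0.14. The spot SDs are those of single spots, so they do not say whether these array means differed. Log2 ratios above 1 on some array and below -1 on another were found in 6 of 30 members (20%), against 23.1% of all genes. Which step made arrays differ was not tested.

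**Figure D4:**
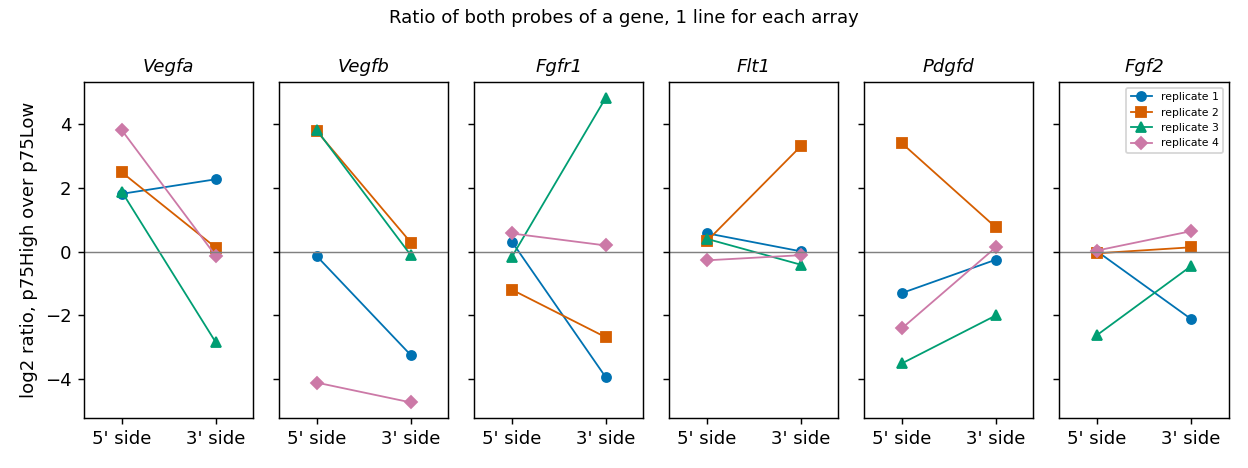
Log2 ratio of p75High over p75Low at the 5′ and the 3′ probe of Vegfa, Vegfb, Fgfr1, Flt1, Pdgfd and Fgf2, with a line for each array. The probes of Vegfa and of Vegfb have different means, and at Fgfr1 one probe spreads from -3.95 to 4.84 and the other from -1.19 to 0.57.

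The rest of the pathway was read from lists. Of the co-receptors and binding proteins, 0 of 14 tested passed (median 0.05), and the smallest p belonged to Sdc3, a heparan sulfate proteoglycan (4.27 ± 1.73, SD, n = 4, adjusted p = 0.151), and Fgfbp1, which carries FGFs off the matrix (-1.80 ± 0.56, adjusted p = 0.179). Of the proteases and inhibitors that process these ligands, 0 of 9 tested passed (median -0.09), with Plat, tissue plasminogen activator, at 5.61 ± 2.01 (adjusted p = 0.109) and Spint1, an inhibitor of HGF activation, at 1.69 ± 0.52 (adjusted p = 0.186). The signalling core had 0 of 25 past the threshold (median -0.14), with Ptpn11, a phosphatase needed for Ras activation, at 4.10 ± 2.97 (adjusted p = 0.321) and Shc1, an adaptor, at -3.37 ± 2.48 (adjusted p = 0.327). Of the hypoxia list, 0 of 12 passed (median -0.05), with Pdk1 at -2.46 (adjusted p = 0.331) and Egln2, an oxygen sensor, at -2.45 (adjusted p = 0.467). Of 14 tested ERK feedback and target genes (median 0.00), 1 passed: Ccnd1, cyclin D1, which drives entry into the cell cycle, fell in p75High cells with -5.02, -5.42, -5.63 and -5.91 (-5.50 ± 0.37, SD, n = 4, adjusted p = 0.0262). The feedback inhibitors of the same list, Spry1, Spry2, Spry4, Spred1 and Spred2, did not pass.

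The markers of other cell types that could be in the cultures were read in the same fit, and their part in the members' ratios was not tested. Microglia and macrophage markers had 8 of 9 tested genes (of 11 listed) past the threshold, all lower in p75High cells. All 9 were negative on all 4 arrays, and the median was -4.62, -6.10, -5.47 and -5.28 by array, with Ctss at -6.11, Csf1r at -6.08, Adgre1 at -5.87 and Itgam at -5.77 (adjusted p = 0.0262 for each). Of the 11 tested markers of ensheathing and Schwann glia (median 1.48, Ngfr included), only Ngfr passed, which is the gene of the sort. Sox10, a glial transcription factor, was at 4.56 ± 1.90 (adjusted p = 0.155). Pericyte and smooth muscle markers (median 0.65) had 1 of 7 past the threshold. This was Notch3, a receptor of mural cells, at 3.63 ± 0.25 (adjusted p = 0.0262). Of the 7, 5 had a positive mean and 2 a negative one, Rgs5 at -0.17 and Des at -0.11. The sign was mixed over the arrays for 4 of the 7. Endothelial markers had 0 of 9 past the threshold (median 0.46), 8 with a positive mean and 1 with a negative one. The smallest p among them belonged to Cldn5 at 1.225 (adjusted p = 0.356) and Vwf at 1.151 (adjusted p = 0.366), both positive on all 4 arrays. The 9 tested endothelial markers include Flt1 at 0.70, which is itself a member, so this list is not separate from the members. Kdr, also a member, was listed but not tested. Fibroblast markers had 0 of 6 past the threshold (median -0.01), with Postn at 4.80 and Col1a1 at 2.73. In that list Col1a2 at -2.71 and Thy1 at -0.99 were negative on all 4 arrays. Of the markers of oligodendrocyte precursors 0 of 4 passed (median -0.26), with Cspg4 at 0.89 and Olig2 at -1.58.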

How the data were processed

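Cy5-labelled p75High and Cy3-labelled p75Low cDNA shared each of 4 Agilent arrays on 1 slide (design 014879, build rn4, Feature Extraction 10.5.1.1, per the file headers; the submitters' processing notes name version 10.5). Per the labels' protocols, mRNA was amplified by global PCR (SuperAmp) and 250 ng of cDNA was labelled, which can distort low transcripts. The deposited intensity values are mean spot signals and local background medians, per the file headers. The deposited log10 ratios were made by the scanner software from dye-normalised signals, per the file headers, and the authors' deposited value table held the same ratios (maximum difference 0, column medians 0).

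Intensities were corrected by normexp (offset 50) and loess (span 0.3) in limma 3.58.1 (R 4.3.3), with 1639 control spots and outlier spots at weight 0. Of 173516 readings, 1112 (0.641%) marked as outliers were left out, and 0 were saturated. Repeat spots were averaged, and 24941 probes were kept whose signal was well above background on 3 or more arrays of 1 population. Genes were read from their brightest kept probe. Ratios were tested against 0 with lmFit and eBayes, two-sided, with Benjamini-Hochberg adjustment over 22193 genes at 0.05. Channel levels used Aquantile values, which leave ratios unchanged. The number of arrays limits the precision. The 4 arrays share a slide, so slide could not be tested as a batch.

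Names were updated through RefSeq (GRCr8), by accession for 10835 probes, by symbol for 5196 and by older symbol for 3478, with 21503 unmatched. Channels of the same array belong to 1 replicate; after removal of group means they correlated at 0.126, 0.065, 0.068 and 0.266 for replicates 1 to 4, and at most 0.05 with channels of another array. Members and gene lists were chosen with earlier results of these data known. Members are described per array where they had an unadjusted p under 0.05, the same sign on all arrays or a mean of at least 1 in size; of each list, genes past the threshold, at most 4, or the 2 with the smallest p are named. Other members given by array, and other list genes that are named, were chosen after their values were seen. Alternatives covered background, normalization, filter, probe choice, outliers, prior, pairing and each array left out. Exon and untranslated-region placement of probes was not analysed here. A second probe of Fgfr2 is not reported here.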

Additional observations from a re-analysis of the deposited data

Results flagged for a closer look

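Of 34 sets of 4 array values tested for a value far from the rest, 3 had one, and chance alone gives about 1 in 20. The log2 ratio of Fgf17 on replicate 4 was -1.12, against 0.03 to 0.16 on the other arrays. That of Fgf22 on replicate 3 was -4.98, against 0.32 to 1.06. That of Flt1 on replicate 2 was 3.31, against -0.41 to 0.01. No explanation was tested.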

How the results depend on the processing

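None of the 14 alternatives brought a member past the adjusted threshold. Over all genes, 166 passed, against 265 with the scanner's own ratios (111 higher and 154 lower), 89 without a filter, 63 with an intensity trend and robust prior, 316 with no replicate block (pairing ignored) and 0 with any 1 array left out, where fewer arrays were fitted. Median centring moved the median of all genes to 0.13. The members' ratios kept their direction in 406 of 419 recomputations. The other 13 are these. Fgf17 turned to 0.0041 under median centring, and Vegfb to -0.56 as the median over probes. With 1 array left out, log2 ratios ranged from -0.81 to 0.11 for Fgf2, -2.15 to 0.78 for Fgfr1, -0.16 to 2.48 for Vegfb, -0.17 to 1.07 for Flt1, -1.24 to 0.78 for Fgf22, -0.52 to 0.62 for Fgfr4, -0.34 to 0.093 for Fgf17 and -0.20 to 0.031 for Vegfc. The Vegfa ratio ranged from 1.18 to 2.80 and that of Fgf3 from 2.60 to 3.70, with smallest adjusted p of 0.0504 and 0.0655, both with pairing ignored. The medians of all members and of the VEGF ligands reached -0.03 and -0.15 without 1 array. The cause of these shifts was not tested.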
